A study of Mus musculus with 8 samples.

Results

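The T and NK cell transcripts are 33 genes chosen by symbol for their known function: chains of the T cell receptor complex, its coreceptors, signalling and costimulatory genes, T cell subset genes, cytotoxic effectors, and NK cell receptors and factors. The rule uses no measured value, and all 33 were found among the 42649 genes of the table. They were measured in RNA of tumour-associated macrophages, sorted as cells positive for CD45, CD11b and F4/80 from liver metastases of C57BL/6 mice. All the mice carried metastases of MC38, a mouse colon carcinoma line, which had been injected into the spleen and were taken at day 19. Before the injection 4 mice had eaten a control diet (CD) with 10% of its calories as fat and 4 a high-fat diet (HFD) with 60%, each for 6 weeks. Their sex and age were not given in the sources used here, and each library is labelled as macrophages, not as lymphocytes.

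T cells recognise antigen through a receptor of alpha and beta chains that is held at the surface by the CD3 chains and the zeta chain, whose tails are phosphorylated by the kinase Lck. NK cells lack this receptor and respond through the balance of activating and inhibitory receptors, and they share perforin and granzymes with cytotoxic T cells. In tumours both are the main killing lymphocytes, and macrophages are known to restrain or recruit them. In mice, mature NK cells carry CD11b, while most T cells lack F4/80, so that a sort for F4/80 is meant to leave T cells behind.

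The members were scarce in these libraries. With totals of 37180157 to 55717378 counts per library, the 33 members together had 3138, 3329, 2653 and 2485 counts in CD and 3952, 2991, 1774 and 1335 in HFD, always in the order of replicates 1 to 4. Lyz2, a lysozyme gene, stood far above them, at 27200 ± 3870 CPM with CD and 25800 ± 21100 with HFD (SD, n = 4). Adgre1, which encodes F4/80, was at 158 ± 71.8 and 466 ± 224. In CD replicates 3 and 4 Adgre1 had 100 and 93.4 CPM, near the members' summed 88.0 and 90.4. CPM here are counts per 1000000 after TMM scaling, which divides each library by a factor chosen so that most genes do not move between libraries. The libraries were uneven: the TMM factors ran from 0.690 to 2.02, and CD replicates 3 and 4 had 34495 and 33449 genes with a count against 21571 to 24556 elsewhere. In those libraries 7.19% and 7.88% of all counts came from 11 neutrophil genes, against 0.0682% to 0.494% in the other 6.

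The T cell receptor chains checked the label first. Cd3d, Cd3g, Trbc1 and Trbc2 had counts in all 8 libraries, while Trac, the alpha constant gene, had none in HFD replicate 3. Ncr1, which encodes the NK cell receptor NKp46, had 15 counts in CD replicate 4 and 0 in the other 7 libraries. Cd3e had 1 and 0 counts in HFD replicates 3 and 4, and Cd247 had 0 and 4. The T cell side of the label thus rested on some of its receptor genes, and others had no count in HFD replicate 3 or 4. In contrast, the most specific NK cell gene was at 0 in nearly every library. In bulk RNA, fewer cells of a type and less RNA per cell cannot be told apart.

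Of the 33 members, 31 passed the filter on low counts and were tested, and Gzmk and Ncr1 did not. The log2 fold change, HFD minus CD, was below 0 in 29 of the 31 with TMM scaling, with a median of -1.04. Over the 17367 genes tested the median was 0.01 and 49.2% were below 0. With library size only, 24 of the 31 were below 0, beside 28.7% of all tested genes. None of the 31 passed an adjusted p of 0.05 by edgeR's quasi-likelihood test with Benjamini-Hochberg adjustment over all tested genes (adjusted p = 0.219 to 0.957), where 0.00576% of all genes did. At an unadjusted p under 0.05, 5 members were lower in HFD, namely Klrk1, Gzmb, Cd3e, Cd3g and Cd5, and 0 were higher. Over all tested genes 7.56% were lower and 5.31% higher at that level. In 7 members, these 5 with Cd247 and Ctla4, all 4 HFD values lay below all 4 CD values, which held for 4.8% of all tested genes. In 0 members did they lie above, against 3.57% of tested genes. Cd5, counted among the 5 and the 7, passed the filter only through its CD libraries.

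**Figure D1:**
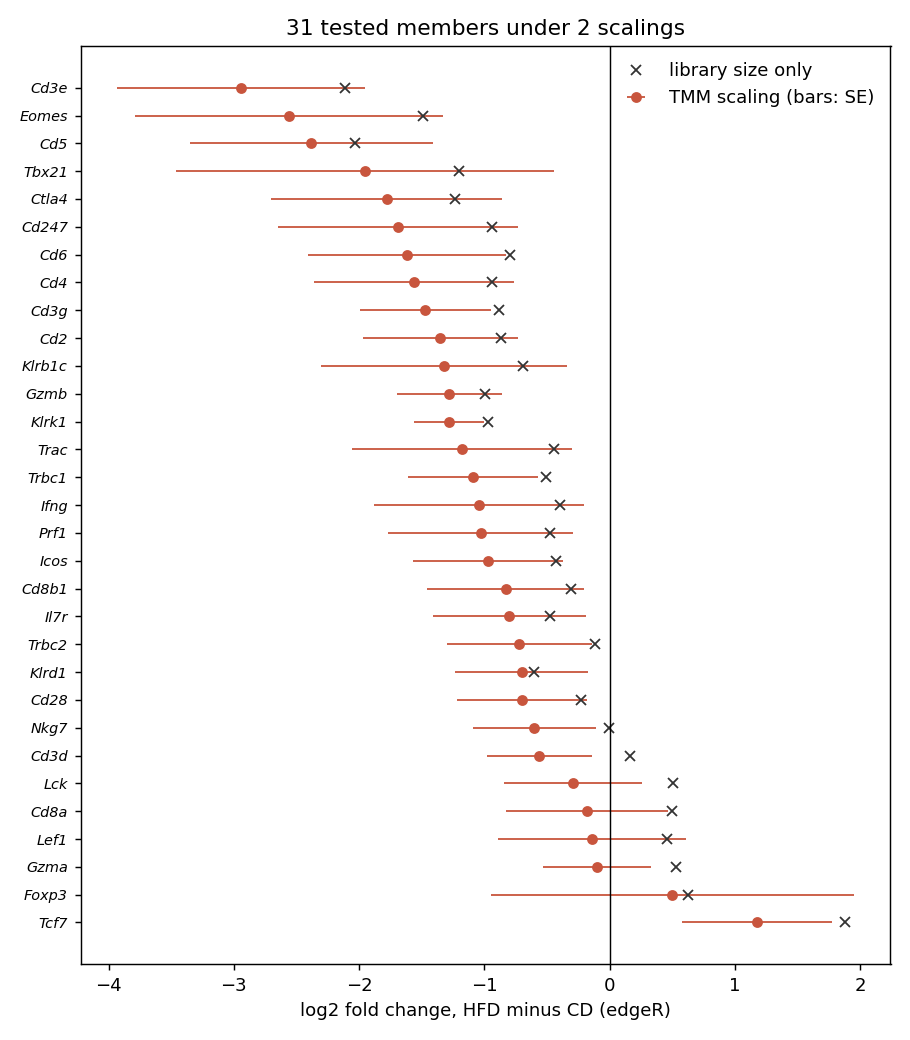
Log2 fold change, HFD minus CD, of the 31 tested members, with SE bars for TMM scaling and crosses for scaling by library size only. With TMM scaling 29 of 31 points lie left of 0, with Tcf7 and Foxp3 to the right, and with library size only 24 of 31 do. Of all tested genes 49.2% were below 0 with TMM scaling and 28.7% with library size only.

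Scarce genes as a class were also lower. Among the 7839 tested genes with a mean of 0.2 to 3 CPM, a range chosen after the values were seen because it holds 28 of the tested members, the median log2 fold change was -0.27 and 62.8% were below 0. The 28 members had a median of -1.06. Of these 28, 4 were lower at an unadjusted p under 0.05, against 8.41% of the genes in that range. In 6 the diets did not overlap, against 6.26%.

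The CD3 chains are described first. Cd3g (gamma chain), Cd3d (delta) and Cd3e (epsilon) are neighbours on mouse chromosome 9, with 1355 bases between the starts of Cd3g and Cd3d, which run in opposite directions, and 27836 between those of Cd3d and Cd3e, which run towards each other. The 250 bases before each start are shown because the values of these neighbours differed. They are RefSeq sequences of build GRCm38.p6, written 5′ to 3′ along the gene's strand, at chr9:44980432-44980681 (minus strand, Cd3g), chr9:44981536-44981785 (plus, Cd3d) and chr9:45009612-45009861 (minus, Cd3e). Capitals mark matches, on either strand, to AGATAA for GATA factors, to CAGNTG, a form of the E-box, or to AGGAAG for ETS factors. No other form of the E-box was searched.
Cd3g: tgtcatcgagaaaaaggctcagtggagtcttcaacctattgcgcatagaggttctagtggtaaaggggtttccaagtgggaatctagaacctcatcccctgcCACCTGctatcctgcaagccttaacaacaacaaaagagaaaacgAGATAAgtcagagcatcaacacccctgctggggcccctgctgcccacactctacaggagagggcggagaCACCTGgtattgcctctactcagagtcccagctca
Cd3d: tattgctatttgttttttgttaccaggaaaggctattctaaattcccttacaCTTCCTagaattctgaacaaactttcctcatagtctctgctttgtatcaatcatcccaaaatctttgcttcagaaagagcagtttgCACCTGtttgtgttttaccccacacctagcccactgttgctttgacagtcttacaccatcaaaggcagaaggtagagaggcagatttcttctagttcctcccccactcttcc
Cd3e: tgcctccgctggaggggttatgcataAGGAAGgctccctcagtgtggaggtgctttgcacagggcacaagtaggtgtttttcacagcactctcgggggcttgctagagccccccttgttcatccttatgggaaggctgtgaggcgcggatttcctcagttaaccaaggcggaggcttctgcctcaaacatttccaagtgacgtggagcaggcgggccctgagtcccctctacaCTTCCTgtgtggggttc
The Cd3g promoter held 1 GATA and 2 E-box matches, that of Cd3d 1 E-box and 1 ETS match, and that of Cd3e 2 ETS matches. Of 27025 mouse promoters of the same length, 10.3% held the GATA motif, 44.5% this form of the E-box and 29.2% the ETS motif. Neither a TATA box (TATAAA, 13.0% of promoters) nor a RUNX motif (TGTGGT, 14.2%) was matched in these windows. The matches describe letters and no binding was measured.

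Cd3e had 42, 43, 23 and 50 counts in CD and 25, 14, 1 and 0 in HFD. As CPM these were 0.77, 0.739, 0.763 and 1.82 in CD and 0.263, 0.208, 0.0237 and 0 in HFD. Every HFD library was below every CD library, and HFD replicates 3 and 4 had almost no reads of the gene. The log2 fold change was -2.94 ± 0.99 (SE; edgeR, adjusted p = 0.293). A count of 0 in HFD replicate 4 allows up to 0.0831 CPM, counting error only. Without strand marking, its reads cannot be told apart from those of the antisense gene Gm48719 that overlaps it.

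Cd3g had 130, 144, 94 and 72 counts in CD and 104, 122, 13 and 20 in HFD. The CPM were 2.38, 2.47, 3.12 and 2.62 in CD and 1.1, 1.82, 0.309 and 0.554 in HFD. The diets did not overlap, and again HFD replicates 3 and 4 were the lowest. Its log2 fold change was -1.47 ± 0.52 (SE; edgeR, adjusted p = 0.306). Cd247, the zeta chain that carries most of the signalling motifs, had 41, 51, 28 and 14 counts in CD and 47, 21, 0 and 4 in HFD. Its CPM were 0.752, 0.876, 0.929 and 0.509 in CD and 0.495, 0.312, 0 and 0.111 in HFD, so that the diets were separate by a narrow margin. On the log2 scale the fold change was -1.69 ± 0.96 (SE; edgeR, adjusted p = 0.473), and this gene was not among the 5 below an unadjusted p of 0.05.

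Cd3d went otherwise. It had 129, 132, 81 and 86 counts in CD and 321, 87, 50 and 43 in HFD. As CPM the CD libraries were at 2.37, 2.27, 2.69 and 3.13, and the HFD libraries at 3.38, 1.29, 1.19 and 1.19. HFD replicate 1 was the highest of all 8 and the other 3 HFD libraries were the lowest, so the diets overlapped. Its fold change on the log2 scale was -0.56 ± 0.42 (SE; edgeR, adjusted p = 0.580), and 0.16 with library size only as the scaling.

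The relation of Cd3e to Cd3d within a library needs no scaling between libraries. There were 0.326, 0.326, 0.284 and 0.581 Cd3e counts per Cd3d count in CD and 0.0779, 0.161, 0.02 and 0 in HFD. All 4 HFD ratios were lower than all 4 CD ratios, HFD replicate 1 included, although its Cd3d was high. Of 9 such ratios between related members this was the one that did not overlap between diets. It is given as a description, without a test, because it was picked out after the values were seen. Cd3g per Cd3d ran from 0.837 to 1.16 in CD and from 0.26 to 1.4 in HFD, with HFD replicate 2 the highest of all.

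**Figure D2:**
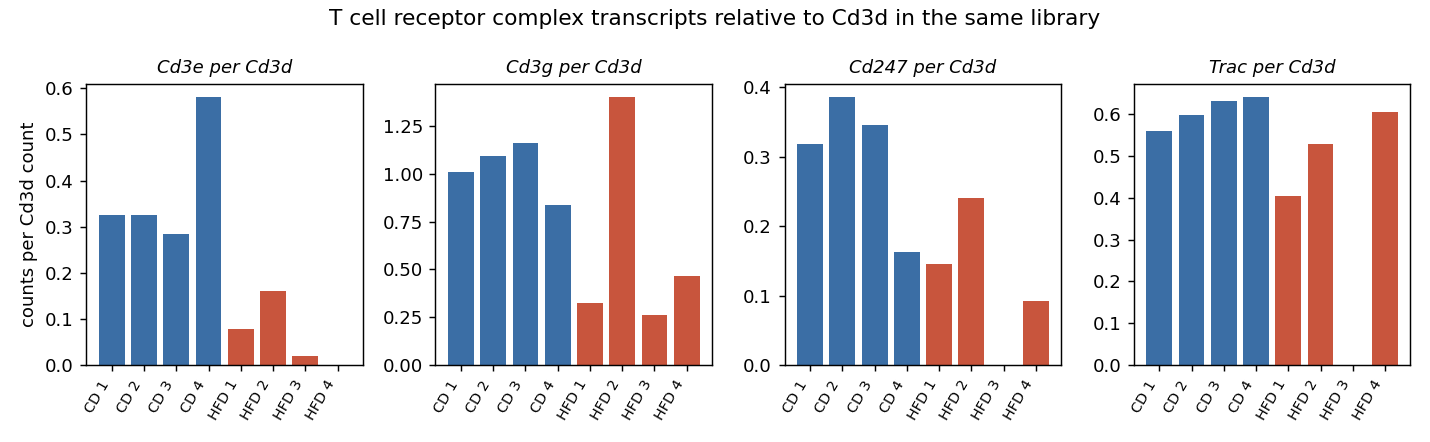
Counts of Cd3e, Cd3g, Cd247 and Trac per count of Cd3d in the same library, 1 bar per library, CD in blue and HFD in red. Cd3e per Cd3d is 0.284 to 0.581 in CD and 0 to 0.161 in HFD, while the other 3 ratios overlap.

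The receptor's own chains were present at low level. Trac had 72, 79, 51 and 55 counts in CD and 130, 46, 0 and 26 in HFD. Trbc1, a constant gene of the beta chain, had 94, 94, 69 and 31 in CD and 91, 85, 28 and 9 in HFD. The other beta constant gene, Trbc2, had 110, 101, 53 and 26 in CD and 149, 92, 9 and 27 in HFD. For these 3 genes HFD replicates 3 and 4 were below every CD library in CPM, and HFD replicate 1 or 2 lay within the CD range in each. Trbc1 and Trbc2 are nearly identical in sequence, so the split of reads between them is uncertain. Over the 7 genes of the receptor complex the summed level was 11.3, 11.1, 13.2 and 12.2 CPM in CD and 9.14, 6.95, 2.4 and 3.57 in HFD. Scaled by the library total it was 12, 12.4, 9.1 and 8.98 in CD and 18.4, 8.38, 2.24 and 2.57 in HFD, so HFD replicate 1 became the highest library and the diets overlapped. All 7 log2 fold changes were below 0 with TMM scaling, with a median of -1.18, while that of Cd3d was above 0 with library size only.

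The coreceptors bind the MHC molecule beside the T cell receptor: CD4 on helper and CD8 on cytotoxic T cells. Cd8a had 48, 45, 19 and 17 counts in CD and 111, 58, 14 and 6 in HFD. Its partner chain Cd8b1 had 52, 62, 55 and 32 in CD and 42, 114, 16 and 10 in HFD. In both, the diets overlapped because HFD replicate 1 or 2 was high, while HFD replicates 3 and 4 were the lowest libraries. Cd4 had 8 to 38 counts per library and was highest in CD replicates 3 and 4, with 38 and 33.

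**Figure D3:**
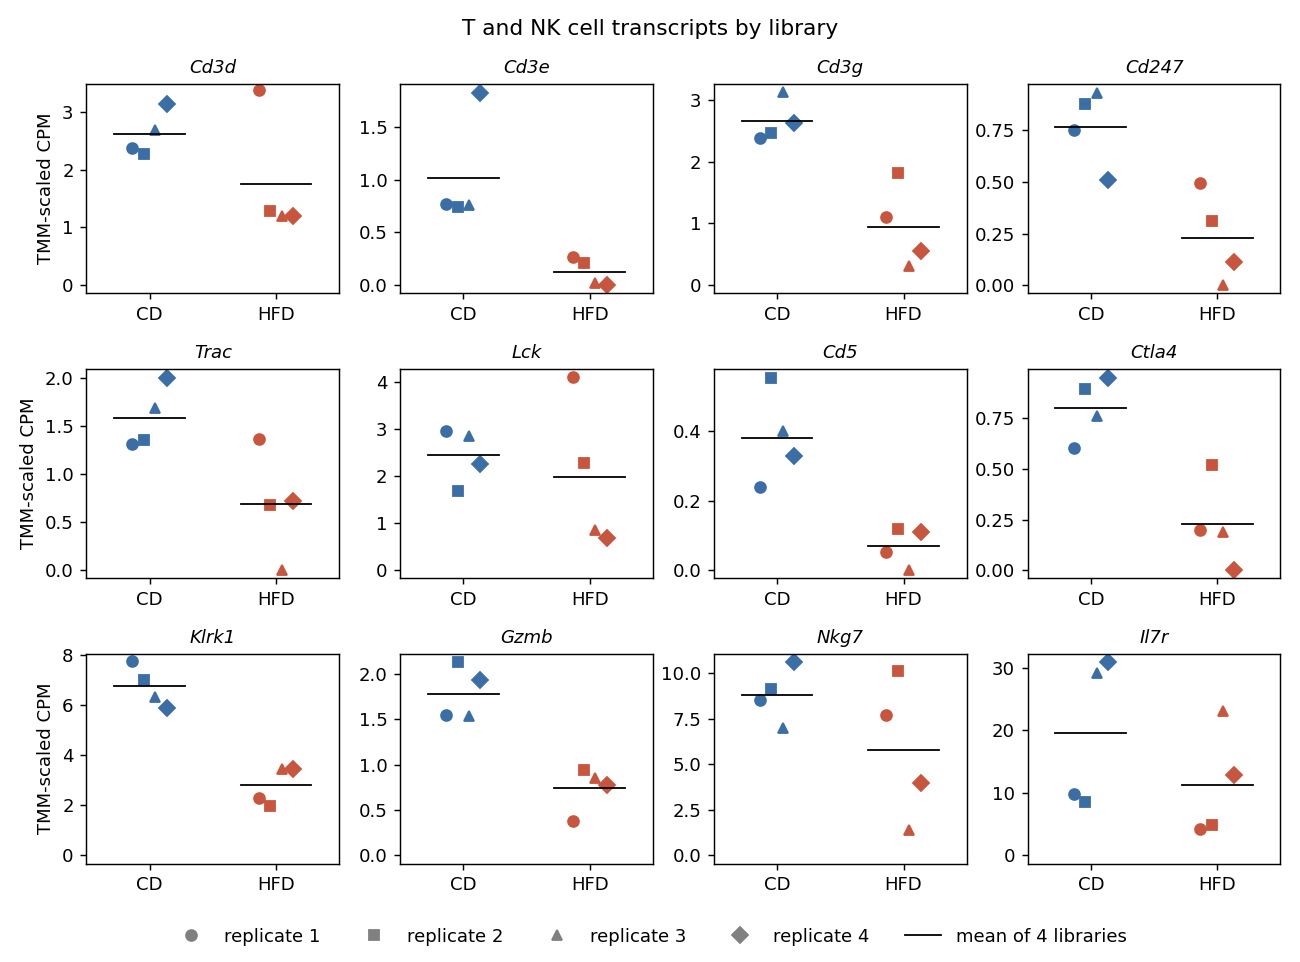
TMM-scaled CPM of 12 members, 1 point per library (marker shape gives the replicate number) with the mean of 4 libraries as a line. Klrk1, Gzmb, Cd3e, Cd3g, Cd247, Cd5 and Ctla4 do not overlap between diets, whereas Cd3d, Trac, Lck, Nkg7 and Il7r do.

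Among signalling and costimulatory genes, Cd5 and Ctla4 were separate between diets. Cd5, a scavenger-type receptor that dampens T cell receptor signals, had 13, 32, 12 and 9 counts in CD and 5, 8, 0 and 4 in HFD. In CPM these were 0.238, 0.55, 0.398 and 0.327 against 0.0527, 0.119, 0 and 0.111. All HFD libraries were lower than all CD libraries, on very few reads. Only the CD libraries reached the level that the filter asks for, so Cd5 was tested because it was high in CD. Its separation is therefore no support for a difference. Cd5 had a log2 fold change of -2.38 ± 0.97 (SE; edgeR, adjusted p = 0.350). Ctla4, the inhibitory receptor for B7 ligands, had 33, 52, 23 and 26 counts in CD and 19, 35, 8 and 0 in HFD. Its CPM ran from 0.605 to 0.946 in CD and from 0 to 0.521 in HFD, without overlap. Ctla4 had a log2 fold change of -1.78 ± 0.92 (SE; edgeR, adjusted p = 0.440).

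Lck had the most reads of this group: 162, 99, 86 and 62 counts in CD and 391, 154, 36 and 25 in HFD. The HFD libraries held both the highest and the lowest values, 4.12 CPM in replicate 1 and 0.693 in replicate 4, around CD values of 1.7 to 2.97. Lck had a log2 fold change of -0.29 ± 0.55 (SE; edgeR, adjusted p = 0.853); with library size only as the scaling it was 0.51, and without HFD replicate 4 it was 0.03.

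The adhesion receptor Cd2 had 137, 143, 75 and 43 counts in CD and 72, 137, 8 and 19 in HFD. Cd6, a relative of Cd5, had 27, 52, 99 and 97 in CD and 95, 65, 4 and 20 in HFD. These showed HFD replicates 3 and 4 as their lowest or near-lowest libraries. Cd28, the receptor that gives the second signal to naive T cells, had 26, 57, 42 and 53 counts in CD and 57, 43, 40 and 27 in HFD. Icos, its inducible relative, had 40, 31, 46 and 62 in CD and 64, 34, 14 and 38 in HFD. For both, the diets overlapped over most of their range. With TMM scaling all 7 log2 fold changes of this group were below 0, with a median of -1.35, and that of Lck was above 0 with library size only.

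The T cell subset genes did not share a direction. Il7r, the alpha chain of the interleukin 7 receptor, which innate lymphoid cells also carry, had 532, 500, 880 and 850 counts in CD and 405, 329, 972 and 462 in HFD. Its CPM were 9.76, 8.59, 29.2 and 30.9 in CD and 4.27, 4.9, 23.1 and 12.8 in HFD. Replicates 3 and 4 were higher than replicates 1 and 2 within each diet, so Il7r followed the replicate number more than the diet. For Il7r the log2 fold change was -0.80 ± 0.61 (SE; edgeR, adjusted p = 0.585). It was 0.28 without CD replicates 3 and 4 and -1.97 without HFD replicates 3 and 4, which leave the replicate numbers unbalanced between diets. Within replicate numbers 1 and 2 it was -1.0, and within 3 and 4 it was -0.66. Il7r supplied 10.2% to 54.8% of all member counts in a library, with the highest share in HFD replicate 3.

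Tcf7, which encodes TCF-1, a factor of naive and stem-like T cells, was one of the pair of members with a log2 fold change above 0. It had 16, 14, 11 and 19 counts in CD and 130, 66, 30 and 18 in HFD, or 0.293, 0.241, 0.365 and 0.691 CPM against 1.37, 0.982, 0.712 and 0.499. Only HFD replicate 4 lay within the CD range. The antisense gene A630014C17Rik overlaps it, so its reads are uncertain in origin. For Tcf7 the log2 fold change was 1.18 ± 0.60 (SE; edgeR, adjusted p = 0.430). Its relative Lef1 had 26, 134, 31 and 35 counts in CD and 146, 163, 9 and 15 in HFD, with overlapping diets. Foxp3, the regulatory T cell factor, was the other member above 0, with 0 to 26 counts in CD and 0 to 65 in HFD. It overlaps Ppp1r3f and Ccdc22 on the opposite strand, so its few reads are uncertain in origin.

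Of the cytotoxic effectors, Gzmb differed most clearly. This granule protease had 84, 124, 46 and 53 counts in CD and 36, 63, 36 and 28 in HFD. As CPM they were 1.54, 2.13, 1.53 and 1.93 in CD and 0.379, 0.937, 0.854 and 0.776 in HFD. No HFD library reached the lowest CD library, and here HFD replicate 1, not replicate 3 or 4, was the lowest. For Gzmb the log2 fold change was -1.28 ± 0.42 (SE; edgeR, adjusted p = 0.287). Gzma, the most abundant granzyme gene of the members, had 133, 103, 127 and 100 counts in CD and 337, 245, 48 and 103 in HFD, at 3.02 ± 1.11 CPM with CD and 2.8 ± 1.16 with HFD (SD, n = 4). The diets of Gzma overlapped throughout, so the granzymes did not share a pattern.

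The remaining effectors were near the limit of detection. Prf1, the pore-forming perforin, had 10 to 28 counts in CD and 6 to 24 in HFD. Ifng, interferon gamma, had 3 to 27 in CD and 3 to 31 in HFD. Gzmk, which was not tested, had 4 to 14 in CD and 0 to 46 in HFD, and it overlaps Esm1 on the opposite strand. None of these 3 separated the diets.

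Klrk1 had the smallest p of all members. It encodes NKG2D, an activating receptor of NK cells and CD8 T cells for stress-induced ligands. Its counts were 422, 407, 190 and 162 in CD and 215, 133, 146 and 124 in HFD. The CPM were 7.74, 6.99, 6.31 and 5.89 in CD and 2.27, 1.98, 3.46 and 3.44 in HFD. The lowest CD library was well above the highest HFD library, and unlike the CD3 chains the lowest values were in HFD replicates 1 and 2. The log2 fold change was -1.28 ± 0.28 (SE; edgeR, adjusted p = 0.219). Klrk1 also had a log2 fold change of -1.32 by DESeq2 (adjusted p = 0.0023), and of -1.31 in an edgeR fit that also separated replicate numbers 1 and 2 from 3 and 4 (adjusted p = 0.0384). With library size only as the scaling it was again below 0 and among the members lower at an unadjusted p under 0.05 (edgeR, adjusted p = 0.51). Over 21 fits, the main one included, the adjusted p of Klrk1 ran from 0.0023 to 0.725. The highest came from edgeR without CD replicates 3 and 4. Only DESeq2 and the fit that separated the replicate numbers were under 0.05.

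Klrd1, which encodes CD94, the partner of the NKG2 receptors, had 183, 171, 93 and 94 counts in CD and 41, 90, 124 and 117 in HFD. Its CD levels were tight, at 3.2 ± 0.227 CPM (SD, n = 4), and HFD replicates 3 and 4 were within reach of them at 2.94 and 3.24 while replicates 1 and 2 were at 0.432 and 1.34. Nkg7, a membrane protein of cytotoxic granules, behaved the other way. It had 466, 531, 211 and 290 counts in CD and 730, 676, 60 and 143 in HFD. HFD replicates 1 and 2 were inside the CD range, and replicates 3 and 4 were far under it, at 1.42 and 3.96 CPM. The log2 fold change of Nkg7 was -0.60 ± 0.49 (SE; edgeR, adjusted p = 0.611).

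The other NK cell genes were scarcer. Klrb1c, which encodes NK1.1, had 16 to 43 counts in CD and 0 to 27 in HFD. Eomes, a T-box factor of NK and memory CD8 T cells, had 15 to 29 in CD and 31, 4, 0 and 0 in HFD. Tbx21, which encodes T-bet, had 0 to 21 in CD and 0 to 21 in HFD. Over the 7 NK cell genes the summed level was 20.4, 20.2, 19.3 and 22.8 CPM in CD and 11.2, 13.8, 8.31 and 10.9 in HFD. Scaled by the library total it was 21.7, 22.6, 13.2 and 16.9 in CD and 22.6, 16.7, 7.78 and 7.8 in HFD, and the diets overlapped. Klrk1, Klrd1 and Nkg7 supplied most of it.

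The libraries of the HFD group were not alike. Both HFD replicates 3 and 4 were below all 4 CD libraries in 19 of the 31 tested members, or 61.3%, against 12.9% of all tested genes. HFD replicates 1 and 2 were below all 4 CD libraries in 9 members, or 29.0%, against 15.0%. Scaled by the library total, the former count was 21 members (67.7%, against 14.4% of tested genes) and the latter 3 (9.68%, against 5.22%). This division was noticed after the values were seen. Most T cell receptor, coreceptor and signalling genes belonged to the former set, and Klrk1, Gzmb, Cd3e, Cd3g, Cd247, Cd5 and Ctla4 to both with TMM scaling. Members without a count were Cd247, Trac, Cd5, Ncr1, Eomes and Tbx21 in HFD replicate 3, and Cd3e, Ctla4, Gzmk, Ncr1, Klrb1c and Eomes in HFD replicate 4. A count of 0 allows up to 0.0712 CPM in the former library and 0.0831 in the latter. In CD, 2, 2, 1 and 0 members had no count.

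The summed level of the members depended on what it was set against. After TMM scaling the sums were 57.6, 57.2, 88.0 and 90.4 CPM in CD and 41.7, 44.5, 42.1 and 37.0 in HFD, without overlap. As counts per 1000000 of the library total they were 61.2, 64.0, 60.5 and 66.8 in CD and 83.8, 53.7, 39.4 and 26.6 in HFD, so HFD replicate 1 was the highest library and the other 3 the lowest. As counts per 1000000 of the counts of 12 macrophage genes they were 1115, 1326, 1977 and 2454 in CD and 3989, 1142, 757 and 387 in HFD. HFD replicate 1 had the smallest share of counts from these 12 genes, 2.1%, against 2.72% to 6.87% elsewhere. Lyz2 alone supplied 1748676 of the 2815573 counts of the 12 genes in CD replicate 1, and 341039 of 990742 in HFD replicate 1. Adgre1 went the other way, with its most counts in HFD replicate 1, 58493 against 2567 to 24597 elsewhere. HFD replicate 1 also had the largest TMM factor of the 8.

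**Figure D4:**
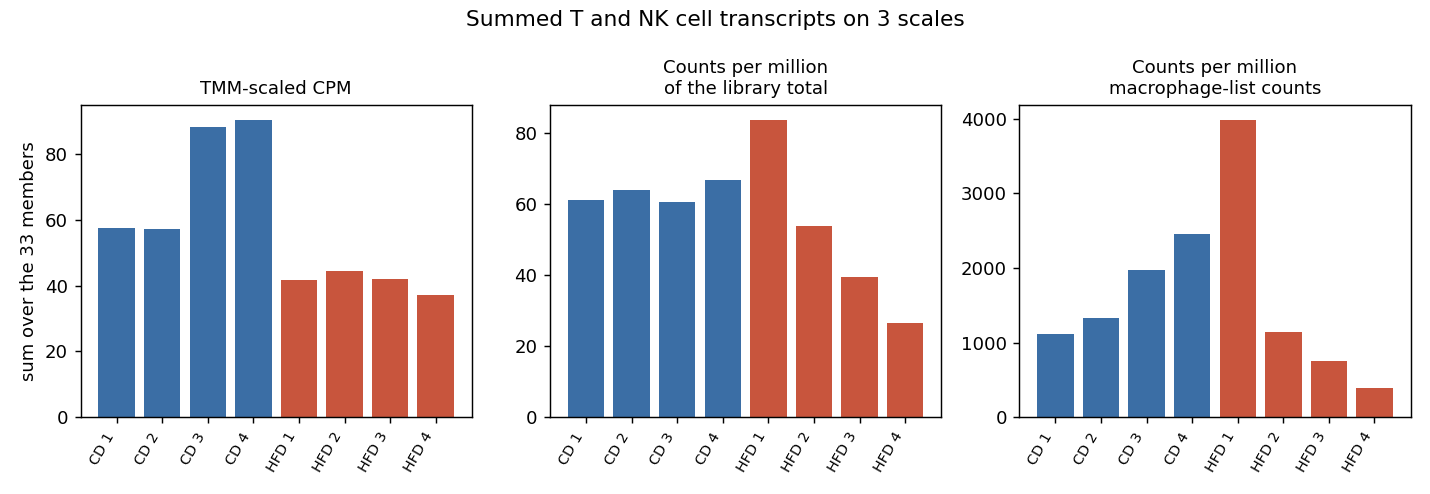
Summed level of the 33 members in each library on 3 scales, all axes starting at 0: TMM-scaled CPM, counts per 1000000 of the library total, and counts per 1000000 of the counts of 12 macrophage genes. The diets are separate in the first panel, while in the others HFD replicate 1 is the highest library, at 83.8 and 3989.

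Scaled by library size only, the median of all tested genes moved to 0.42 and that of the members to -0.48, a distance of -0.90 against -1.05 with TMM. Then 1 member was lower at an unadjusted p under 0.05 (Klrk1; 3.56% of all tested genes) and 1 was higher (Tcf7; 6.24%). In 1 member, Cd5, or 3.23%, the diets did not overlap, near the 2.57% of tested genes. Cd5 passed the filter only through its CD libraries, so this cannot be read as a result about the members. Compared within replicate numbers 3 and 4 only, 15 of 30 tested members were lower at an unadjusted p under 0.05 and 8 at an adjusted p under 0.05 (Lck, Cd3g, Nkg7, Cd4, Cd6, Cd2, Cd3e and Eomes). In that comparison 24.8% and 16.5% of all tested genes were lower at these levels. Within replicate numbers 1 and 2, 5 members were lower at an unadjusted p under 0.05 (Il7r, Gzmb, Klrk1, Klrd1 and Cd3e; 5.48% of tested genes). Gzmb and Klrk1 were lower at that level without CD replicates 3 and 4, the libraries with neutrophil transcripts, where 2.58% of tested genes were. The part of the neutrophil transcripts in these differences was not tested.

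When the fit separated replicate numbers 1 and 2 from 3 and 4, 9 members were lower at an unadjusted p under 0.05 (9.59% of tested genes) and Klrk1 alone passed an adjusted p of 0.05 (2.05% of tested genes in either direction). By DESeq2, 11 members were lower at an unadjusted p under 0.05 (10.7%) and Klrk1 and Cd3e passed the adjusted threshold (3.68%). The Cd3e log2 fold change by DESeq2 was -3.01 (adjusted p = 0.0356).

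The members were set against genes that liver and leukocytes do not use, 1590 genes of the olfactory, vomeronasal and taste receptor, keratin-associated protein and beta-defensin families. The mean FPKM of these silent families, which corrects for gene length, was 0.0108, 0.0129, 0.0592 and 0.0639 in CD and 0.00749, 0.00545, 0.00934 and 0.0062 in HFD. In CD replicates 3 and 4, 77.7% and 73.5% of the silent genes had at least 1 count, against 8.55% to 25.0% in the other 6 libraries. Of the silent genes 34 were tested, with a median log2 fold change of -2.03 and 31 below 0. At an unadjusted p under 0.05, 6 were lower and 1 was higher, against 7.56% and 5.31% of all tested genes. Summed, the silent genes had 60.9, 64.0, 417 and 412 CPM in CD and 21.8, 33.4, 50.7 and 46.2 in HFD, without overlap. The part of this background in the members' values was not tested. The number of members above the silent families' 95th percentile was 27, 29, 20 and 17 in CD and 30, 30, 22 and 22 in HFD. In CD replicates 3 and 4 that level itself was higher, at 0.2 and 0.262 FPKM against 0.0197 to 0.0653 elsewhere. With the silent mean subtracted from each FPKM, the median difference between diets was -0.37 on the log2 scale. Per length, Nkg7 was the highest member, with a median over the 8 libraries of 7.87 FPKM, and Gzma followed at 2.24 FPKM.

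**Figure D5:**
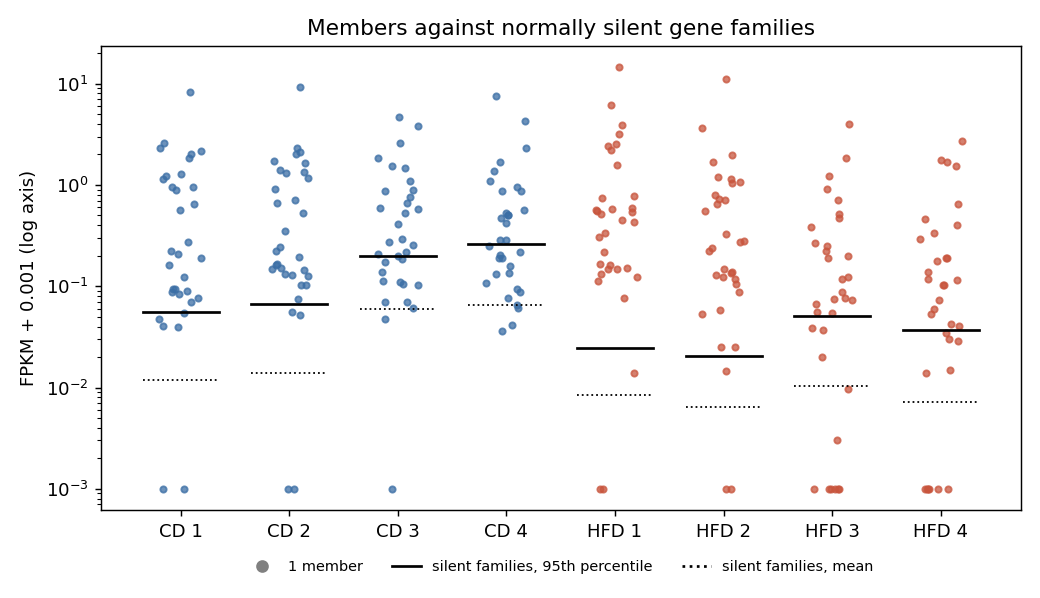
FPKM + 0.001 of each of the 33 members in each library on a log axis, 1 point per member, with the mean (dotted) and the 95th percentile (solid) of 1590 normally silent genes. The solid line is at 0.2 and 0.262 FPKM in CD replicates 3 and 4, where 20 and 17 members lie above it, and 22 to 30 do in the HFD libraries.

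Other T cell genes were looked at as a list of 36 outside the members, of which 27 were tested. Of these 8 were lower at an unadjusted p under 0.05 and 0 higher, with 0 past the adjusted threshold and a median log2 fold change of -1.13. Over all tested genes 7.56% were lower and 5.31% higher at that level, and the same shares stand beside each list that follows. Ubash3a and Cd69 were among the genes with the smallest p values. Ubash3a, a phosphatase-like regulator of T cell receptor signals, was at 1.62 ± 1.26 CPM with CD and 0.29 ± 0.148 with HFD (SD, n = 4). Its CD values were 0.385, 0.859, 3.19 and 2.04 CPM, and HFD replicate 1 was at 0.453, so the diets overlapped. Cd69, an early activation antigen of many leukocytes, was at 67.3 ± 30.3 and 26.8 ± 9.93. Outside the naming rule, and chosen after its values were seen, the kinase Zap70, which docks on the zeta chain, had 0.345 ± 0.248 CPM with CD and 0.596 ± 0.273 with HFD. The 73 variable segments of the T cell receptor had summed levels of 1.52, 1.43, 9.99 and 6.91 CPM in CD and 0.653, 1.58, 1.07 and 1.27 in HFD. CD replicates 1 and 2 lay within the HFD range, and CD replicates 3 and 4 were the high ones. Of these segments 1 was tested.

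Among 30 other NK cell and cytotoxic genes, 17 were tested, 2 were lower and 0 were higher at the unadjusted level, and the median was -0.44. Xcl1, a chemokine of NK and CD8 T cells that draws dendritic cells, was at 0.917 ± 0.404 CPM with CD and 0.167 ± 0.13 with HFD (SD, n = 4), and its diets did not overlap. Txk, a Tec-family kinase of T and NK cells that stands in both lists, was at 1.51 ± 0.794 and 0.406 ± 0.249. Sh2d1b1, the adaptor EAT-2, had the third smallest p of the list and was at 5.84 ± 1.92 with CD and 12.9 ± 8.97 with HFD.

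Of 14 tested B cell genes, 0 were lower and 1, Cd79b, was higher at an unadjusted p under 0.05, with a median of -0.75. Of 5 tested genes of innate lymphoid cells 1 was lower, Areg, an epidermal growth factor ligand that other leukocytes also make, at 19.7 ± 10.6 CPM with CD and 4.27 ± 1.41 with HFD (SD, n = 4). The tested hepatocyte genes were lower too, 4 of 7 at an unadjusted p under 0.05, with a median of -1.46, and the carcinoma and epithelial genes 2 of 5, with a median of -1.13. The neutrophil list had a median of -2.82, with 7 of 11 lower and 1 higher, while the macrophage list had a median of 0.59, with 4 of 12 higher and 0 lower. The part of these other transcripts in the members' values was not tested.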

How the data were processed

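RNA of sorted macrophages of 8 mice, 4 per diet, was made into cDNA with an oligo(dT) primer, amplified and fragmented, per the labels' protocols, which describe no molecular identifiers and no strand marking. Tools listed by the submitters' processing notes are cutadapt 1.9, HISAT2 2.0.4 and StringTie 1.3.4d. Genome build and parameters: not given in the sources used here. Per the table itself, the authors deposited raw counts per gene and FPKM, which divide by gene length and depth. Of the members, 27 have the start and end of GENCODE M21 (GRCm38). Of the 33 members, 23 had a RefSeq promoter.

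Counts were tested with edgeR 4.0.16 in R 4.3.3 (filterByExpr, TMM, quasi-likelihood F test, two-sided, diet as the only term) over the whole table, with Benjamini-Hochberg adjustment over 17367 genes. Levels are TMM-scaled CPM, with SD and n = 4, and fold changes log2 with SE. Alternatives used library size only, DESeq2 1.42.0, limma 3.58.1 on log2(FPKM + 1) and log2(FPKM + 0.1), no filter, a filter of 1 CPM in 4 libraries, a replicate block, a term separating replicate numbers 1 and 2 from 3 and 4, and libraries left out. The fit scripts were tested on simulated data. The members and lists were chosen with earlier results of these data known. Counts per library are given for members with a mean of at least 30 counts or an unadjusted p under 0.05, and the others by range. Up to 3 genes by smallest p are named per related list, of which 1 is not reported here.

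Same-numbered CD and HFD libraries deviated together across genes (r = 0.11, 0.292, 0.22 and 0.183), and all 4 were over 0.1, so the replicate block is reported with the alternatives. The labels do not say that numbers pair the mice. Pairs such as CD 1 with HFD 2, whose numbers differ but fall on the same side, correlated more strongly for each HFD library (r = 0.16 and 0.318 among 1 and 2, 0.265 and 0.203 among 3 and 4), so these data show a division of 1 and 2 from 3 and 4 and do not single out the number. Floors of 3 counts express counting error alone, because amplified copies of 1 molecule are counted separately.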

Additional observations from a re-analysis of the deposited data

Results flagged for a closer look

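In 8 of 68 groups of 4 libraries, over the CPM of the 33 members and their sum, 1 library stood apart from the other 3 by more than Dixon's 95% limit. For independent groups of normally distributed values, chance alone would mark about 1 in 20. These groups share libraries and hold low counts with zeros, so that rate need not apply and the number flagged is a description only.

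Cd3d was set apart by HFD replicate 1, at 3.38 CPM, and Cd8b1 by HFD replicate 2, at 1.7 CPM. Prf1 was highest in HFD replicate 2, at 0.357 CPM. In CD, Cd3e was highest in replicate 4, at 1.82 CPM, Gzmk in replicate 3, at 0.465 CPM, and Ncr1 in replicate 4, at 0.546 CPM, where it was the only library with a count. Cd2 was lowest in CD replicate 4, at 1.56 CPM, and Foxp3 in CD replicate 2, at 0 CPM.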

How the results depend on the processing

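The members' median log2 fold change was below 0 under every alternative run. With no filter on low counts it was -0.91, beside -1.01 over all 42649 genes. It was -0.48 with library size only, -0.09 with limma on log2(FPKM + 1), -0.50 on log2(FPKM + 0.1), -0.56 without CD replicates 3 and 4, -0.80 without HFD replicates 3 and 4 (added after seeing the data), -0.34 within replicate numbers 1 and 2, -1.77 within 3 and 4, -0.37 after subtraction of the silent families' mean, and -1.14 to -0.75 with 1 library left out. With the replicate block it was -1.15, with 7 members lower at the unadjusted level, and the block changed no other call. That count was 1 with library size only, 2 and 3 with limma, 2 without CD replicates 3 and 4, 9 with the term for the replicate numbers, 11 by DESeq2, 15 within 3 and 4, and 4 to 8 with 1 library left out, where 8 came without HFD replicate 2. Past the adjusted threshold were 2 by DESeq2, 1 with the term and 8 within 3 and 4. A single member, 1, was higher with library size only, in both limma fits, without CD replicates 3 and 4, without HFD replicates 3 and 4 and within 1 and 2, and 0 to 1 with 1 library left out. Members without overlap numbered 1 with library size only (2.57% of tested genes), 4 with the 1 CPM filter and 3 in each limma fit. No share over all tested genes is given for the replicate block, the 1 CPM filter, limma or 1 library left out. The same holds without HFD replicates 3 and 4, and for the higher members without CD replicates 3 and 4 and within 1 and 2. Counts without that share cannot be read as a result about the members. Members above 0 numbered 2 in the main comparison, 7 with library size only and 11 within 1 and 2. Of 15 members followed one by one, directions turned for Cd3d (0.16 with library size only, 0.03 within 1 and 2), Il7r (0.28 without CD replicates 3 and 4), Lck (0.51 with library size only, 0.08 with limma on log2(FPKM + 1), 0.03 without HFD replicate 4, 0.48 without HFD replicates 3 and 4, 0.47 within 1 and 2, -0.91 to 0.03 with 1 library left out) and Nkg7 (0.09 without HFD replicates 3 and 4, 0.01 within 1 and 2). Il7r was -1.97 without HFD replicates 3 and 4, -1.0 within 1 and 2 and -0.66 within 3 and 4. Gzma, Cd8a and Lef1 lay near 0 at -0.10, -0.18 and -0.14. In this order they were 0.53, 0.50 and 0.46 with library size only, 0.20, 0.07 and 0.05 by limma at a pseudocount of 1, 0.19, 0.09 and 0.13 at a pseudocount of 0.1, 0.36, 0.56 and 0.71 without HFD replicates 3 and 4, and 0.78, 0.31 and 0.51 within 1 and 2. Gzma was also 0.04 with no filter and 0.41 without CD replicates 3 and 4. With 1 library left out Gzma ran from -0.25 to 0.19, Cd8a from -0.65 to 0.15 and Lef1 from -0.76 to 0.37. The cause was not tested. Few counts limit the precision of most members, and the lack of strand marking limits Foxp3, Gzmk, Cd3e, Cd247, Tcf7, Lef1 and Eomes, which genes on the opposite strand overlap.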
